A study of Mus musculus with 6 samples.

Results

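NADPH oxidase subunits were followed in articular cartilage of wild-type mice at 2 ages. The members were 6 genes, chosen by name and found as 1 entry each among the 33971 genes of the expression table: Cybb, Cyba, Ncf1, Ncf4 and Rac2, which encode parts of the phagocyte oxidase, and Nox4, which encodes a separate catalytic subunit. RNA sequencing covered 3 libraries of 2-month-old and 3 of 18-month-old animals, to ask how expression in articular cartilage changes with age. All libraries carried the WT genotype label, and no other allele or treatment was given for either age. The labels do not say whether a library came from 1 mouse or from pooled mice, so p-values measure the spread between these libraries, which may be technical.

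NADPH oxidases are membrane enzymes that pass electrons from NADPH to oxygen and make superoxide or hydrogen peroxide. In neutrophils and macrophages the catalytic subunit gp91phox (Cybb) sits in the membrane with p22phox (Cyba), and it works only after cytosolic subunits, among them p47phox (Ncf1), p40phox (Ncf4) and the GTPase Rac2, have joined it. Nox4 also needs p22phox but none of the cytosolic subunits, makes mainly hydrogen peroxide without a trigger, and is an oxidase known from chondrocytes, the resident cells of cartilage.

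The libraries held 48171507 to 59085179 counts. The labelled tissue was checked with 16 chondrocyte markers, whose summed CPM (counts scaled by library total, and further scaled between libraries by the trimmed mean of M-values) were 40903 to 63004 at 2 months and 586 to 1411 at 18 months. All 16 were called lower at 18 months, beside 21.3% of all genes. Markers of other cells also differed in level. A list of 14 neutrophil genes summed to 18.3 to 5312 CPM at 2 months and to 39653 to 44245 CPM at 18 months, with 0 of the 14 called. Among the 2-month libraries, replicate 2 stood apart from the others in its blood and bone cell markers. Xist had 88239 to 102417 counts at 2 months and 11 to 30 at 18 months, while the Y-linked gene Ddx3y had 0 to 10 and 4333 to 4839, which splits the libraries by sex-linked genes exactly as by age, although the study's methods describe male mice. Age, sex-linked pattern and cell content cannot be told apart in this design, and in such bulk samples fewer cells of a type and less RNA per cell cannot be told apart either.

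Of the catalytic subunits, Nox4 was called lower at 18 months, and Cybb was higher in each 18-month library without passing the test. Cybb (ENSMUSG00000015340) lies on chromosome X at 9435252 to 9487771, minus strand (GRCm38). Its level was 0.0483, 15.7 and 0.394 FPKM (fragments scaled by transcript length and library total) in 2-month replicates 1, 2 and 3, and 129.7, 116.6 and 115.3 FPKM in 18-month replicates 1, 2 and 3. The ages did not overlap: the lowest 18-month library was 7.36 times the highest 2-month library. Within the 2-month group replicate 2 stood far above the others, with 5324 counts against 16 and 130. The means were 5.37 ± 8.92 FPKM at 2 months and 120.5 ± 7.96 FPKM at 18 months (SD, n = 3 each), a 22.4-fold difference. With edgeR's quasi-likelihood test the log2 fold change was 4.50 with a standard error of 1.93, and the adjusted p of 0.098 did not pass the threshold of 0.05.

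Nox4 (ENSMUSG00000030562) lies on chromosome 7 at 87246096 to 87398710, plus strand. Its level was 0.341, 0.380 and 0.674 FPKM in 2-month replicates 1, 2 and 3, and 0.0365, 0.0384 and 0.0252 FPKM in 18-month replicates 1, 2 and 3. All 3 libraries were low at 18 months and the ages did not overlap, with the lowest 2-month library at 8.87 times the highest 18-month library. The means were 0.465 ± 0.182 FPKM at 2 months and 0.0334 ± 0.0071 FPKM at 18 months (SD, n = 3 each). Nox4 fell by 3.86 on the log2 scale with a standard error of 0.43, and the adjusted p of edgeR was 0.0019. Counts were small at both ages, 160, 189 and 322 at 2 months and 21, 21 and 14 at 18 months, and the exact Poisson interval at 95% confidence of the lowest count ran from 7.65 to 23.5, which covers counting error only.

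**Figure D1:**
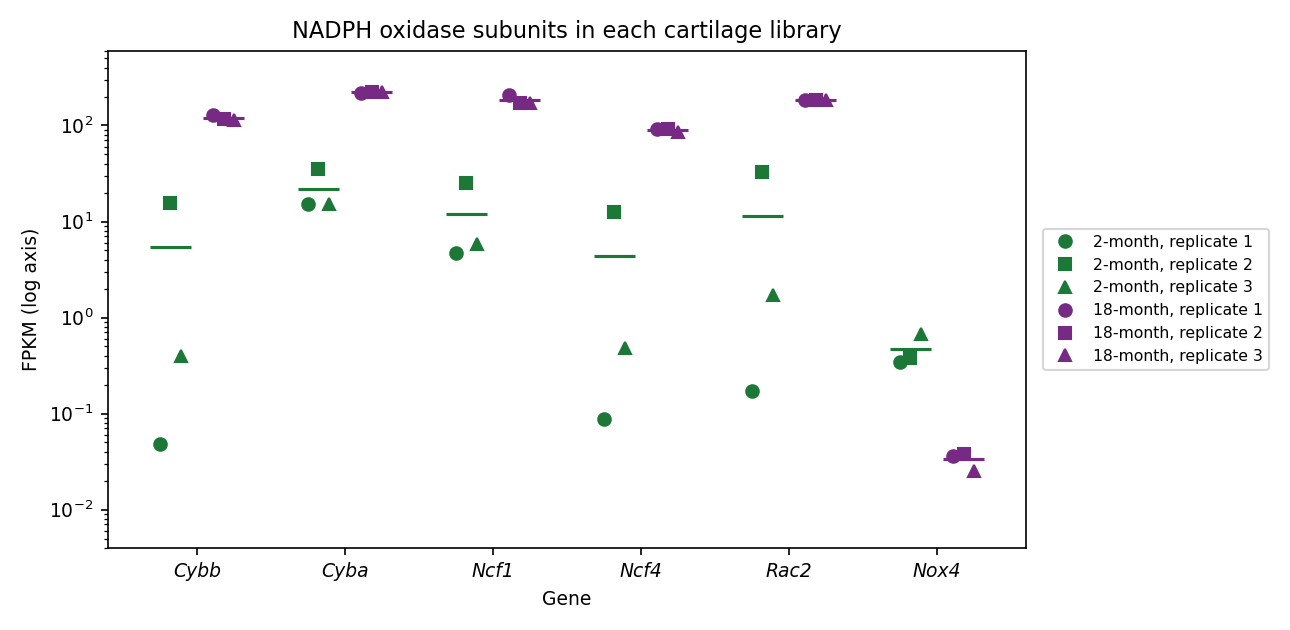
FPKM (log axis) of the 6 members in each library, with green for 2-month and purple for 18-month libraries, a symbol for each replicate number and a line at each group's mean (n = 3). The 5 phagocyte members lie between 85.6 and 225.6 FPKM at 18 months and spread widely at 2 months, while Nox4 lies below 1 FPKM in every library and is lower at 18 months.

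Cyba (ENSMUSG00000006519) encodes p22phox, the membrane partner that both catalytic subunits share, and lies on chromosome 8 at 122424776 to 122432930, minus strand. Its level was 15.2, 35.6 and 15.4 FPKM in 2-month replicates 1, 2 and 3, and 220.5, 225.6 and 221.5 FPKM in 18-month replicates 1, 2 and 3. Cyba was the member with the highest FPKM in every library. The groups did not overlap, and Cyba rose by a log2 fold change of 3.28 with a standard error of 0.35 (edgeR adjusted p = 0.0017). In GENCODE M21 a predicted gene on the other strand, Gm20388, which is not among the genes of the table, covers all of Cyba, and whether strand was used in counting is not given in the sources used here.

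The cytosolic subunits were read from 3 members. Ncf1 (ENSMUSG00000015950), which encodes the organizer p47phox, lies on chromosome 5 at 134220053 to 134229625, minus strand. Its level was 4.65, 25.5 and 5.80 FPKM at 2 months and 210.2, 171.8 and 173.0 FPKM at 18 months, in replicates 1, 2 and 3. The ages did not overlap, and Ncf1 rose by a log2 fold change of 3.92 with a standard error of 0.71 (edgeR adjusted p = 0.0069). Gtf2ird2 on the other strand overlaps Ncf1 by 4303 bases, with 647 to 1004 counts at 2 months and 2132 to 2424 at 18 months against 938 to 5462 and 39579 to 51753 counts of Ncf1.

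Ncf4 (ENSMUSG00000071715), which encodes the phosphoinositide-binding subunit p40phox, lies on chromosome 15 at 78244801 to 78262580, plus strand. Its level was 0.0887, 12.6 and 0.483 FPKM at 2 months and 91.2, 91.2 and 85.6 FPKM at 18 months, in replicates 1, 2 and 3. As for Cybb, replicate 2 was the high library of the 2-month group, and the ages did not overlap. The log2 fold change was 4.34 with a standard error of 1.68, and it did not pass the test (edgeR adjusted p = 0.074).

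Rac2 (ENSMUSG00000033220), the Rac GTPase of blood cells, lies 296.6 kb from Ncf4 on chromosome 15 at 78559167 to 78572783, minus strand. Its level was 0.174, 32.5 and 1.74 FPKM at 2 months and 183.4, 182.2 and 185.6 FPKM at 18 months, in replicates 1, 2 and 3. The 18-month libraries were nearly alike, whereas the 2-month libraries ran from 30 to 5901 counts. The log2 fold change was 4.01 with a standard error of 1.70 and an edgeR adjusted p of 0.095, so it was not called.

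By the rule for a call (adjusted p under 0.05 and a log2 fold change beyond 1 in size), 3 of the 6 members were called, beside 36.3% of the 20397 genes tested. Cyba and Ncf1 were called higher at 18 months, beside 14.9% of all genes, and Nox4 was called lower, beside 21.3%. All 5 phagocyte members had every 18-month library above every 2-month library, which held for 35.6% of all genes, and Nox4 was among the 32.8% with the opposite order.

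The calls of Cybb, Ncf4 and Rac2 turned on 2-month replicate 2. Without it all 5 phagocyte members were called higher, beside 23.3% of the 21489 genes then tested, and Nox4 was called lower, beside 21.3%. Their log2 fold changes were then 8.95 ± 1.0 for Cybb (standard error, edgeR adjusted p = 0.00088), 8.12 ± 0.65 for Ncf4 (adjusted p = 0.00029) and 7.47 ± 1.10 for Rac2 (adjusted p = 0.0024). Cyba moved less, to 3.77 ± 0.11 (adjusted p = 3.8e-05), as did Ncf1, to 5.04 ± 0.20 (adjusted p = 5.4e-05), and Nox4 was at -4.0 ± 0.43 (adjusted p = 0.00079). With all 6 libraries the calls also depended on the test: all 5 were called higher by DESeq2, beside 17% of all genes, and by limma on log2(FPKM + 0.1), beside 20.3%.

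**Figure D2:**
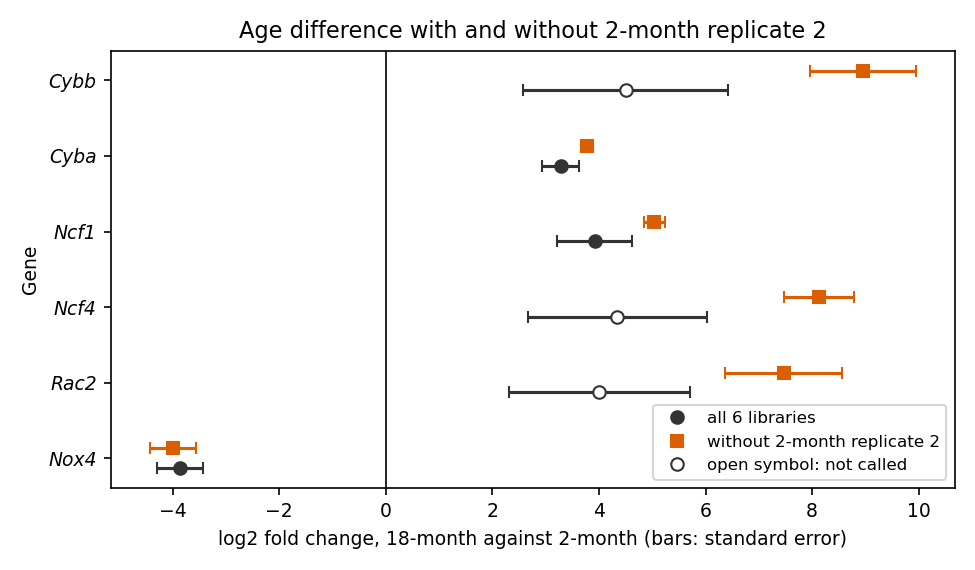
Log2 fold change of each member at 18 months against 2 months from edgeR, with bars of 1 standard error, for all 6 libraries (circles) and without 2-month replicate 2 (squares); filled symbols are called and open ones are not. Cybb, Ncf4 and Rac2 lie between 4.01 and 4.50 with all libraries and between 7.47 and 8.95 without that library, while Nox4 stays near -4.0.

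The start regions of the members that were matched in RefSeq are shown because Cyba and Ncf1 rose and Nox4 fell, with Cybb beside them as the other catalytic subunit. Of the 6 members, 4 had a 300-base window (250 bases before to 50 after the gene's RefSeq start) in the RefSeq table, build GRCm38.p6, and 280 bases are printed, ending 30 bases after the start. Capitals mark the letters searched on both strands: GAGGAA, a core bound by the phagocyte factor PU.1, CCAAT, and GGGCGG, the GC box. The windows are chrX:9469295-9469574 (minus strand) for Cybb, chr8:122432911-122433190 (minus strand) for Cyba, chr5:134229596-134229875 (minus strand) for Ncf1 and chr7:87246399-87246678 (plus strand) for Nox4.
Cybb: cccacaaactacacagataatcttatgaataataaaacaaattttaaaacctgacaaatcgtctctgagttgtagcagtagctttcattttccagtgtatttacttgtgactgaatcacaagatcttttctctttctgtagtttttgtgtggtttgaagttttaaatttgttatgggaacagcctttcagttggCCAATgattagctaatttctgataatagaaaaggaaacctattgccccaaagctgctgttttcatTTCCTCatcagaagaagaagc
Cyba: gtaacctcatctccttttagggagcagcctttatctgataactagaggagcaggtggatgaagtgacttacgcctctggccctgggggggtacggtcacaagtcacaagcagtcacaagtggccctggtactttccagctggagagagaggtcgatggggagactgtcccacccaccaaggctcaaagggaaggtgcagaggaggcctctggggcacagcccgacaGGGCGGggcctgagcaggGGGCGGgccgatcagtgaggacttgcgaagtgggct
Ncf1: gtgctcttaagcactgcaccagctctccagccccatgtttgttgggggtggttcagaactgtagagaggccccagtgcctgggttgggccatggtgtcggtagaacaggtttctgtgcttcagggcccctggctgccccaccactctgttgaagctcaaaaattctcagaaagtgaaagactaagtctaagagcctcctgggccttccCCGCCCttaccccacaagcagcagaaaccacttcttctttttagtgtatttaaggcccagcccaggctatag
Nox4: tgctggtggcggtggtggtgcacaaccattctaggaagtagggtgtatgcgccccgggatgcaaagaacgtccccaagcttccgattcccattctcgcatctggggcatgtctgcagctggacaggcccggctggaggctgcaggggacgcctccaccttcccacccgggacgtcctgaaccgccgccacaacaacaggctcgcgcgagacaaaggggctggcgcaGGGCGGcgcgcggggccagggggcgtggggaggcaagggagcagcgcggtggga

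Each window differed in base composition. The Cybb window had 35.3% G and C and 1 CpG, the Ncf1 window 54.0% and 3, the Cyba window 60.7% and 9, and the Nox4 window 68.3% and 24, beside medians of 52.7% and 7 over the 32851 windows of the table. Positions count from the first base of the gene in RefSeq, taken as 0, to the first letter of the match. That base is the same as the start of the gene in the expression table for Ncf1 and lies 10 bases upstream of it for Cyba, but it lies 553 bases downstream for Nox4 and 18.4 kb downstream for Cybb, so the Nox4 and Cybb windows are inside the limits given above for those genes. The Cybb window held CCAAT at -56 and GAGGAA, read on the other strand as TTCCTC, at 9, and no GC box. GGGCGG stood at -24 and -6 in Cyba, at -24 in Nox4 and, on the other strand, at -42 in Ncf1. These letters are common, since 28.3% of all windows held GAGGAA, 37.4% CCAAT and 35.7% GGGCGG, so a match is a description of the window only.

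The phagocyte genes were then set against Nox4 within each library, on the FPKM scale, which is per length. Nox4 exceeded Cybb 7.06-fold in 2-month replicate 1 and 1.71-fold in replicate 3, and Cybb exceeded Nox4 41.2-fold in replicate 2. In 18-month replicates 1, 2 and 3 Cybb exceeded Nox4 3557-fold, 3036-fold and 4571-fold. The order of the 2 catalytic subunits thus differed among the 2-month libraries and was the same in all 18-month libraries. Of the summed FPKM of Cybb, Nox4, Nox1 and Duox1, the catalytic subunit genes in the table, Cybb made up 11.3%, 97.3% and 36.1% at 2 months and 99.96%, 99.95% and 99.89% at 18 months.

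As log2 ratios of (FPKM + 0.1), Cybb to Nox4 was -1.57, 5.04 and -0.65 at 2 months and 9.89, 9.72 and 9.85 at 18 months. The means were 0.94 ± 3.58 and 9.82 ± 0.0903 (SD, n = 3 each), a difference of 8.88 with a two-sided exact permutation p of 0.1, the smallest that 3 against 3 libraries can give. The summed FPKM of the 5 phagocyte members was 20.1, 121.9 and 23.8 at 2 months and 834.8, 787.5 and 780.9 at 18 months. Its log2 ratio to Nox4 was 5.52, 7.99 and 4.95 at 2 months and 12.58, 12.47 and 12.61 at 18 months, so the complex as a sum lay above Nox4 in every library. Cyba alone, the subunit that Nox4 also uses, stood at 44.6, 93.7 and 22.8 times the Nox4 FPKM at 2 months and at 6047, 5875 and 8776 times at 18 months.

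**Figure D3:**
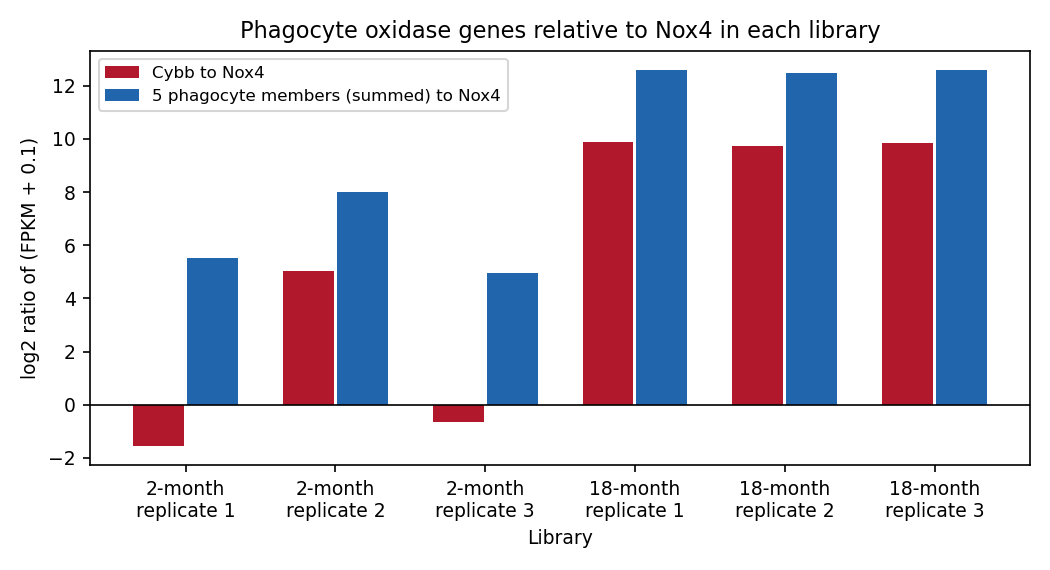
Log2 ratio of (FPKM + 0.1) to Nox4 in each library, for Cybb (red) and for the summed 5 phagocyte members (blue). Cybb lies below Nox4 in 2-month replicates 1 and 3, at -1.57 and -0.65, and above it in the other 4 libraries.

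The proportions of the subunits to each other also differed between libraries. Per FPKM of Cybb, Cyba stood at 314.5, 2.28 and 39.0 in the 2-month libraries and at 1.70, 1.94 and 1.92 in the 18-month libraries. Ncf1 stood at 96.4, 1.63 and 14.7 at 2 months and at 1.62, 1.47 and 1.5 at 18 months. Cyba and Ncf1 thus had reads assigned to them in 2-month replicates 1 and 3 with little Cybb, and 2-month replicate 2 had proportions near those at 18 months. In 2-month replicate 1 Ncf1 had 938 counts and the overlapping Gtf2ird2 had 647. The part of reads from Gtf2ird2 and Gm20388 in the Ncf1 and Cyba values was not tested. Ncf4 varied less, with 1.84, 0.807 and 1.22 per FPKM of Cybb at 2 months and 0.703, 0.783 and 0.742 at 18 months. Rac2 was at 3.60, 2.07 and 4.41 at 2 months and at 1.41, 1.56 and 1.61 at 18 months. Of the summed complex Cyba made up 75.4%, 29.2% and 64.6% at 2 months and 26.4%, 28.6% and 28.4% at 18 months. In 2-month replicate 1 the Cybb count was 16, with an exact Poisson interval of 9.15 to 26.0, so the ratios to Cybb there rest on few reads.

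**Figure D4:**
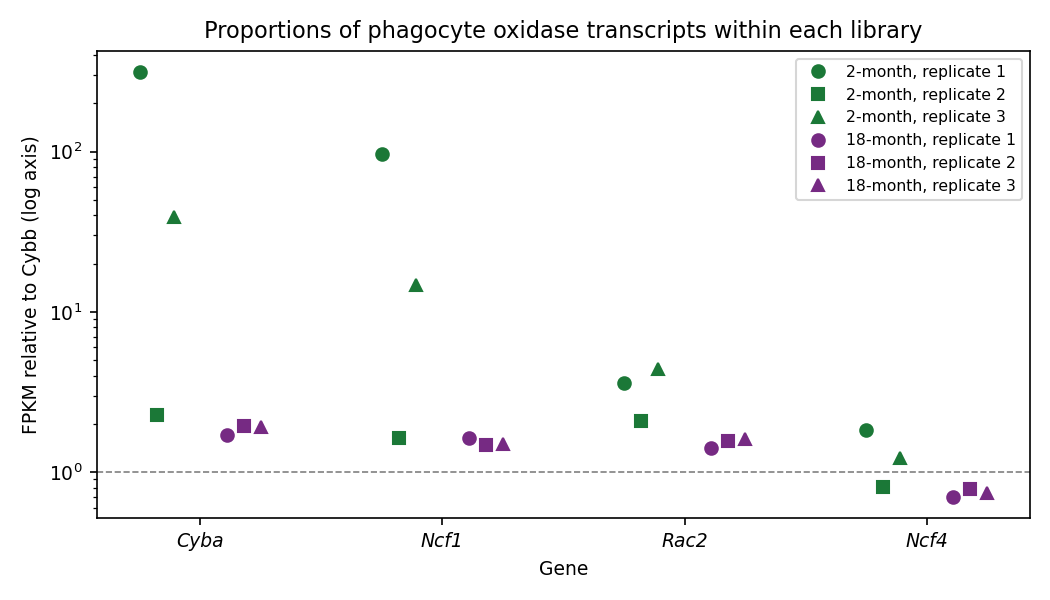
FPKM of Cyba, Ncf1, Rac2 and Ncf4 relative to Cybb in the same library (log axis), with green for 2-month and purple for 18-month libraries and a symbol for each replicate number; the dashed line marks equal FPKM. The 18-month libraries lie close together for each gene, and 2-month replicates 1 and 3 lie far above them for Cyba and Ncf1.

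The members fell into groups by how strongly the 2-month libraries differed. As a share of the 18-month mean CPM, Cybb was at 0.0453%, 12.9% and 0.361% in 2-month replicates 1, 2 and 3, Ncf4 at 0.121%, 14% and 0.603%, and Rac2 at 0.104%, 17.5% and 1.04%. Ncf1 was at 2.75%, 13.7% and 3.44%, and Cyba at 7.43%, 15.9% and 7.54%. Nox4 had the opposite order, at 1099%, 1109% and 2171%. The 14 neutrophil markers were at 0.0429%, 12.5% and 0.655% as a sum, with Elane, Ctsg, Cxcr2 and Ly6g at 0 in 1 or more of the 2-month libraries. Of the 14, 13 were higher without overlap between the ages, beside 35.6% of all genes, and 0 were called. The 12 monocyte and macrophage markers were at 2.92%, 29.5% and 6.63%, the 8 erythroid markers at 0.826%, 20.1% and 2.28%, and the 10 T and NK lymphocyte markers at 1.38%, 19.1% and 3.09%. Called higher were 3, 3 and 8 genes of these lists, beside 14.9% of all genes. Markers at 0 in a 2-month library were not limited to the neutrophil list. The T and NK lymphocyte list had 7, the monocyte and macrophage list 2, and the B lymphocyte and osteoclast lists 1 each. The 9 B lymphocyte markers, at 5.55%, 138.2% and 7.54%, the 9 endothelial markers, at 6.27%, 139.4% and 22.6%, and the 7 osteoclast markers, at 4.47%, 253.0% and 53.0%, exceeded the 18-month mean in replicate 2. As sums, 4 lists were, like Nox4, above the 18-month mean in every 2-month library. The 16 chondrocyte markers were at 4728%, 7283% and 5771%, the 7 smooth muscle and pericyte markers at 416.9%, 425.2% and 453.1%, the 8 fibroblast markers at 167.1%, 300.7% and 175.8%, and the 10 osteoblast and osteocyte markers at 158.7%, 502.1% and 179.6%. Of these 4 lists, in the same order, 16, 3, 4 and 3 genes were called lower, beside 21.3% of all genes. Their genes did not all go this way. In the fibroblast list 2 were called higher, beside 14.9% of all genes, and 7 osteoblast and osteocyte genes were not called. Neutrophils and macrophages are known to carry the phagocyte oxidase and chondrocytes to carry Nox4. The part of cell content in the members' values was not tested.

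**Figure D5:**
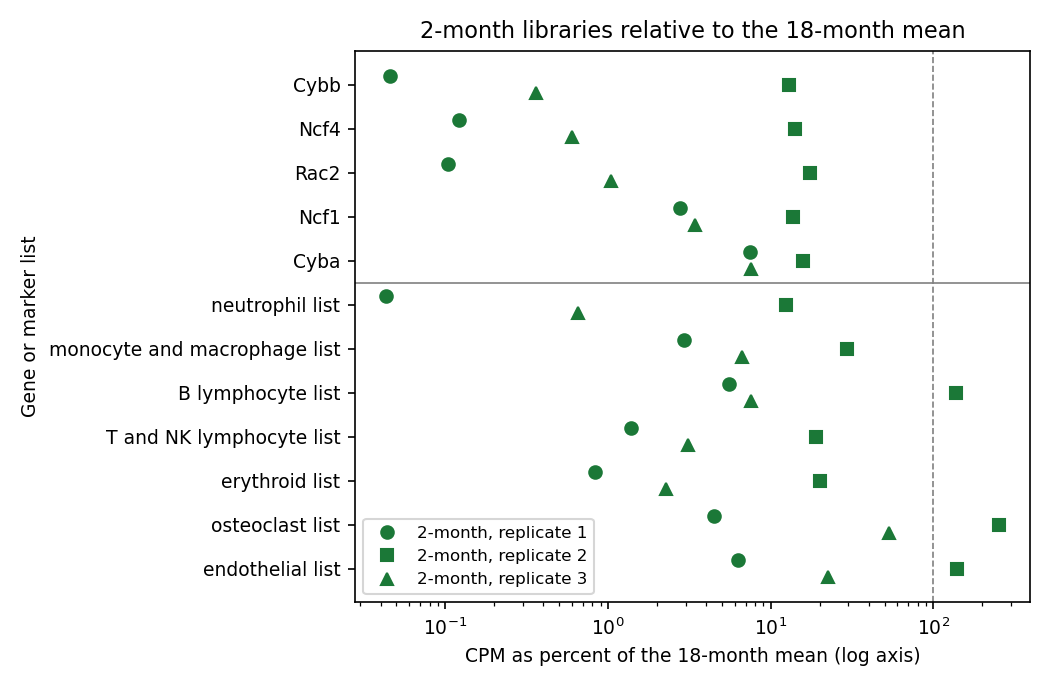
CPM in each 2-month library as a percent of the 18-month mean (log axis, dashed line at 100), for the 5 phagocyte members above the grey line and for summed marker lists below it. Every gene and list drawn runs in the order replicate 1, 3, 2. Cybb, Ncf4, Rac2 and the neutrophil list run from below 1% to between 12.5% and 17.5%. The erythroid list runs from 0.826% to 20.1%, the T and NK lymphocyte list from 1.38% to 19.1%, and Cyba starts at 7.43%.

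Across the 6 libraries, Pearson's r of log2 CPM was 0.9993 between Cybb and Ncf4, 0.998 between Cybb and Rac2, and 0.992 between Cyba and Ncf1. It was lower between Cybb and Cyba, at 0.930. Nox4 ran against the others, with -0.977 for Cyba and -0.841 for Cybb. The points share their age groups and libraries, so these values describe the spread and are no separate result. Among 13899 genes with a mean of at least 1 FPKM, 577 had r over 0.99 with Cybb, and the 5 most like it were Cd177, Plbd1, P2ry13, Plk1 and Spn, each at 0.9999. For Nox4 96 of 13900 genes were over 0.99, led by Rad9b at 0.998. Srsf11, Gm37607, Gm43808 and Gm23908 followed, each at 0.997 after rounding.

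Among the other subunits of the family, Rac1, the Rac GTPase of most cell types, had 55.3, 47 and 47.5 FPKM at 2 months and 69.6, 71.8 and 69.7 FPKM at 18 months, a log2 fold change of 0.41 ± 0.14 (standard error, edgeR adjusted p = 0.048) that lay under the fold limit. The ratio of Rac2 to Rac1 was 0.00314, 0.691 and 0.0366 at 2 months and 2.64, 2.54 and 2.66 at 18 months, so Rac1 was the more abundant Rac in each 2-month library and Rac2 in each 18-month library. Noxo1, an organizer subunit of non-phagocyte oxidases, was called lower (-2.58 ± 0.49, adjusted p = 0.0082), and Rac3 was at -1.09 ± 0.41 (adjusted p = 0.068). Nox1, Duox1 and Duoxa1 had too few counts to be tested.

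The rest of the pathway was read from 6 lists, of which 56 genes were tested, and 15 of them were called higher and 9 lower, in all 42.9% beside 36.3% of all genes. Without 2-month replicate 2, 33 of the 57 then tested were called higher and 8 lower, beside 23.3% and 21.3% of all genes. Leaving out any other library lowered the count, to 14 to 21 called in either direction, beside 26.4% to 31.4% of all genes. Of 18 genes for assembly and priming of the oxidase, 4 were called higher and 2 lower, beside 14.9% and 21.3% of all genes. Their median log2 fold change was 1.31 beside -0.02 over all genes tested. Arhgdib, a GDP dissociation inhibitor of blood cells, was called higher (4.33 ± 0.88, edgeR adjusted p = 0.0098), as was the protein kinase C gene Prkcd (2.22 ± 0.42, adjusted p = 0.0079). The widely expressed inhibitor Arhgdia was at 0.25 ± 0.16 (adjusted p = 0.214). Rap1a, a small GTPase found with the flavocytochrome, was at 0.88 ± 0.12 (adjusted p = 0.0027), under the fold limit.

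Of 10 receptors that trigger the phagocyte burst, 4 were called higher, beside 14.9% of all genes, with a median log2 fold change of 4.29. All 10 were higher without overlap between the ages, beside 35.6% of all genes, and without 2-month replicate 2 all 10 were called higher, beside 23.3%. Fcgr3, an IgG receptor, was called higher (4.25 ± 1.31, edgeR adjusted p = 0.039), but the call was lost with no filter on low counts (adjusted p = 0.054), without 2-month replicate 3 (adjusted p = 0.115) and without any 1 of the 18-month libraries (adjusted p of 0.082 to 0.086). The integrin genes Itgb2 (3.95 ± 1.54, adjusted p = 0.077) and Itgam (4.05 ± 1.85, adjusted p = 0.113) and the formyl peptide receptor Fpr2 (5.06 ± 1.95, adjusted p = 0.074) did not pass. Of 8 transcription factors of the phagocyte oxidase genes 4 were called higher and 1 lower, with a median of 2.54, beside 14.9% and 21.3% of all genes. Cebpa (3.04 ± 0.49, adjusted p = 0.0046) and Elf1 (1.56 ± 0.28, adjusted p = 0.0069) were called higher, whereas Spi1, which encodes PU.1, was at 3.61 ± 1.5 (adjusted p = 0.090) and Cebpe at 4.38 ± 1.80 (adjusted p = 0.087).

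TGF-beta signalling is known to raise Nox4 in several cell types. Of 9 TGF-beta and SMAD genes, 4 were called lower and the other 5 were not called, with a median log2 fold change of -0.63, beside 21.3% of all genes called lower. Without 2-month replicate 2 the count called lower was 3. Tgfb3 (-3.99 ± 0.31, edgeR adjusted p = 0.0010), a TGF-beta ligand, the signal transducer Smad3 (-2.28 ± 0.19, adjusted p = 0.0012) and the receptor Tgfbr2 (-1.03 ± 0.15, adjusted p = 0.0036) were called lower. Tgfbr2 passed the fold limit narrowly and came under it with median-of-ratios scaling (-0.97), total counts (-0.96), DESeq2 (-0.95), limma on log2(FPKM + 0.1) (-0.93) and log2(FPKM + 1) (-0.88), without 2-month replicate 2 (-0.86) and without 18-month replicate 3 (-0.98). Tgfb1 was at 0.63 ± 0.098 (adjusted p = 0.0042), on the other side of zero and under the fold limit. Of 7 enzymes that use superoxide or hydrogen peroxide, 2 were called higher and 1 lower, beside 14.9% and 21.3% of all genes. The peroxide-reducing Gpx1 (2.49 ± 0.30, adjusted p = 0.0023) and the eosinophil peroxidase Epx (5.14 ± 1.62, adjusted p = 0.042) were called higher, Mpo, the neutrophil peroxidase, was at 4.66 ± 2.31 (adjusted p = 0.137), and Sod1 was at -0.18 ± 0.21 (adjusted p = 0.506). The Epx call was lost with no filter on low counts (adjusted p = 0.058) and without any 1 library other than 2-month replicate 2 (adjusted p of 0.054 to 0.089), and without that replicate its log2 fold change was 8.83.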

How the data were processed

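Each library was kept as its own sample. The authors deposited, for every gene, unnormalized whole-number counts and, beside them, FPKM (fragments per length of transcript and per library total). The protocol gives poly(A) selection, strand-specific libraries with molecular identifiers and paired-end reads. The submitters' processing notes name cutadapt 1.9, HISAT2 2.0.4, UMI-tools, StringTie 1.3.4d, DESeq2 and edgeR; the build, annotation and strand setting are not given in the sources used here. Of 33971 genes, 33865 were found in GENCODE M21, 91.3% of them with identical coordinates, so positions are on GRCm38. 0 columns of values per library were left unused.

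The counts went into edgeR 4.0.16 under R 4.3.3 (TMM, filterByExpr, quasi-likelihood, no block), with Benjamini-Hochberg adjustment over the 20397 genes tested. Standard errors were obtained as log2 fold change over the square root of F. FPKM was used for levels and ratios, with a pseudocount of 0.1 on the log2 scale. limma 3.58.1, DESeq2 1.42.0, other scalings and filters, and leaving out each library were the alternatives. The fits were tested on simulated data with known changes. Figures were drawn in Python 3.11.15 with matplotlib 3.10.9. The members and the gene lists were chosen with earlier results of these data known. Genes named are all members, Rac1, up to 4 genes of each pathway list by mean FPKM and the 5 most like Cybb and Nox4; Nox1, Duox1, Duoxa1, Xist, Ddx3y and the overlapping genes were named as well. 1 gene of the rule is not reported here. Markers at 0 were named after their values were seen.

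Same-numbered libraries of the 2 ages did not deviate together. Counting noise alone did not account for the difference between any libraries of 1 age: the median chi-square over genes exceeded it 6.32-fold for 18-month replicates 2 and 3, the closest pair, and 48.7-fold for 2-month replicates 1 and 2. No libraries were merged.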

Additional observations from a re-analysis of the deposited data

How the results depend on the processing

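All 95 values of the members under the alternatives kept their direction. Of the 6 members, 3 were called in the analysis reported, beside 36.3% of all genes tested. All 6 were called with DESeq2 (37.0% of all genes), limma on log2(FPKM + 0.1) (40.0%) and limma on log2(TPM + 0.1) (41.5%). Limma on log2(FPKM + 1) called 5, beside 24.4% of all genes. There the pseudocount exceeds the Nox4 level, and the log2 fold change of Nox4 was -0.50. Noxo1 also came under the fold limit there, at -0.71. Leaving out each library in turn gave 3 to 6 members called, beside 26.4% to 44.6% of all genes. The 6 came only without 2-month replicate 2, the fit with 44.6%. Of the pathway genes 24 were called, against 39, 37 and 40 with limma at pseudocounts of 0.1 and 1 and on TPM. The shares of all genes called in these fits were 36.3%, 40.0%, 24.4% and 41.5%. When a library was left out, 14 to 41 pathway genes were called. The 14 came without 18-month replicate 3, beside 27.1% of all genes, and the 41 without 2-month replicate 2, beside 44.6%. The genes called, 7401 in all, ranged from 5097 to 9594, within 1.5 times, but the numbers tested differed, from 14018 to 33971. As a share of the genes tested, calls ran from 20.3% with no filter on low counts to 44.6% without 2-month replicate 2. With limma at a pseudocount of 0.1, rescaling FPKM to TPM took the median change over all genes from 0.075 to -0.33 (log2). The share of calls that were higher went from 50.6% to 34.8%, where the analysis reported had 41.2%. Limma at a pseudocount of 1 gave 57.8%, and edgeR gave 52.2% without 2-month replicate 2. Arhgdia turned to -0.093 on TPM, and Sod1 to 0.0093 without 2-month replicate 1. The difference in the log2 ratio of Cybb to Nox4 was 5.88 with a pseudocount of 1 and 10.79 with 0.01. The correlations of the deviations of same-numbered libraries were 0.034, 0.044 and -0.024, so the numbers mark no pairs; with a replicate block 6032 genes and 3 members were called, Cybb had a log2 fold change of 7.67 (edgeR adjusted p = 0.074), and the ratio of Cybb to Nox4 still differed by 8.88 (exact permutation p within pairs = 0.25, the smallest possible). Among the members, counts were fewest, at 11 to 30, for Ncf4, Cybb and Rac2 in 2-month replicate 1, and at 14 to 21 for Nox4 at 18 months.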
